A study of Mus musculus with 8 samples.

Results

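The transcriptome of uninduced pre-B cells was compared between a line labelled Tet2KD, which expresses a short hairpin RNA against Tet2, and a line that expresses a control short hairpin RNA. All 4 arrays titled as uninduced (0 h) were used, 2 from each line, of the 8 arrays in the series. Every non-control probe entered, and 16151 genes passed the filter on dim probes and were tested. Both lines derive from C10, an established mouse pre-B cell line of HAFTL origin in which C/EBPα, a transcription factor, can be switched on. They were kept in medium with 1 µg/ml puromycin, and the 0 h cells had received neither estradiol nor added cytokines. In the other 4 arrays, cells of the same lines had been induced for 24 h with M-CSF at 10 ng/ml, IL-3 at 10 ng/ml and estradiol at 100 nM. The labels name 1 line per hairpin and do not say whether a line is a clone or a pool. The series design describes the arrays of a group as technical duplicates, so each p-value below measures the spread between duplicate arrays and no error between cultures could be given.

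TET2 is a dioxygenase that oxidises 5-methylcytosine in DNA to 5-hydroxymethylcytosine, a step towards removal of the methyl mark. Pre-B cells express the surrogate light chain and the machinery of immunoglobulin gene rearrangement, while most genes of the macrophage programme are silent or low. C/EBPα, a basic leucine zipper factor of myeloid cells, can convert pre-B cells into macrophage-like cells, and the 0 h comparison asks how the lines differed before that switch was turned on.

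Levels are given as log2 intensity relative to the 75th percentile of the same array, so that 0 is a spot at that percentile. A gene was called where limma gave a Benjamini-Hochberg adjusted p under 0.05 over all genes together with a difference of at least 2-fold. The value after ± is the standard error of the fit, with n = 2 arrays per line. The 2 uninduced control arrays correlated across genes with r = 0.9936, yet 598 genes lay 2-fold or more apart between them, against 691 between the 2 uninduced Tet2KD arrays.

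The label was checked first. Tet2 stood at -1.23 and -1.36 on the control arrays and at -1.51 and -1.30 on the Tet2KD arrays by its brightest probe. The 2 groups overlapped. The difference was -0.11 ± 0.10 (limma, adjusted p = 0.53), so a lower Tet2 transcript was not detected by this probe. A neighbouring probe read -2.82 and -3.01 in control against -3.36 and -3.04 in Tet2KD cells. The difference was -0.28 ± 0.15 (limma over all probes without the filter, unadjusted p = 0.12). Here both Tet2KD arrays were below both control arrays, but 57.1% of all genes tested had groups that did not overlap. The probe that lies farthest from these on the gene passed the background mark on only 2 of the 4 arrays, and read -1.95 on 1 control array against -5.24 on its duplicate, and -5.27 and -4.95 in Tet2KD cells. The first 30 bases of each probe are shown because the label check rests on them. They are on the minus strand of chromosome 3 in mouse build mm9, at chr3:133126751-133126810, chr3:133126905-133126964 and chr3:133176421-133176479.
A_55_P2081303: gcttacttcctgagattttggctttgttta
A_55_P2051405: acgcacagtgatgtatagttcactttacaa
A_55_P2074075: gaaaatccgaagaaccccttgtgcctttaa

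The related dioxygenase genes were also compared. Tet1 read -4.84 and -3.89 in control and -5.07 and -5.47 in Tet2KD cells, a difference of -0.91 ± 0.36 that did not pass (adjusted p = 0.16). Tet3 differed by 0.17 ± 0.19 (adjusted p = 0.60). Of 26 tested genes of cytosine methylation and its oxidation, none was called in either direction, and their median difference was 0.13. The single Cebpa probe was not well above background on any of the 4 uninduced arrays, with levels from -8.01 to -7.28, so the endogenous gene was not tested. The differences below are those between lines that carry these labels, and a reduction of Tet2 RNA was not measured.

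Both lines carried the transcripts of a pre-B cell. All 14 pre-B cell markers were well above background on all 4 arrays, and none was called, where 1.72% of all genes were. Vpreb1, which encodes a part of the surrogate light chain, read 7.83 and 7.76 in control and 8.02 and 7.76 in Tet2KD cells. Blnk, the adaptor downstream of the pre-B receptor, read 6.35 and 6.28 against 6.30 and 6.20. These ranges overlapped. Dntt, the terminal transferase that adds nucleotides at immunoglobulin joints, was 1.81-fold higher in Tet2KD cells (0.86 ± 0.09, adjusted p = 0.0050), below the 2-fold limit. Other lists held markers of further cell types. In the list of macrophage and neutrophil markers, 9 of 12 genes were tested and none was called, and the log2 of their summed intensity was 2.52 and 2.63 in control against 2.56 and 2.45 in Tet2KD cells. For stem and progenitor markers, 5 of 15 genes were tested and 2 were lower, with log2 summed levels of 5.24 and 5.08 against 4.03 and 3.86. Most of that sum came from Egfl7, a secreted vascular and progenitor factor, at 5.23 and 5.07 in control against 4.02 and 3.85 in Tet2KD cells (-1.21 ± 0.09, adjusted p = 0.0026). The other call, Ly6a, was above background on 1 control array and on no Tet2KD array at 0 h. It was at least 1.22-fold lower, and its call was lost in 4 alternative settings. Of 12 dendritic cell markers 8 were tested and 1 was called lower (log2 summed levels of 5.66 and 5.79 against 5.87 and 5.75), and of 16 stromal and endothelial markers 7 were tested and 1 was lower (5.16 and 5.23 against 4.61 and 4.74). The dendritic call, Clec10a, was not well above background on any uninduced array and gets no fold. It was lost in 7 alternative settings. Over all genes 1.39% were lower.

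Before induction the Tet2KD line had many more genes with a lower transcript than with a higher one. Of the 16151 genes, 278 were called (1.72%), 225 of them lower in Tet2KD cells (1.39%) and 53 higher (0.328%). These shares belong beside the count of every list and family in this report. All 4 uninduced arrays were above background for 149 of the lower and 29 of the higher genes. In 48 lower and 19 higher genes 1 whole group was dim. Where such a gene passed the filter only through the group in which it was high, the filter itself favoured the call. In 10 lower and 2 higher genes no uninduced array was above background. Those genes passed the filter on 24 h arrays and have no measured fold. At any fold, 2176 genes had an adjusted p under 0.05 (13.5%), and these split more evenly, with 1221 lower and 955 higher. Across all genes the median difference was 0.0037, with quartiles of -0.19 and 0.18. Percentile scaling sets the bulk of the genes near 0; with median scaling the median was 0.08 and 169 genes were lower and 54 higher. In 193 of the 225 lower genes and 39 of the 53 higher genes the difference reached 2-fold on both slides, each of which held 1 array of every group. A call already required 2-fold on the mean of these slides, which favours such a count, and the share over all genes was not computed. The 2 groups were apart, with no overlap, in all 278 called genes, but this held for 57.1% of all genes tested and so says little with 2 arrays per group. The size of the call set depended on the processing. With the authors' deposited value table, 96 genes passed, 85 lower and 11 higher, and 94 of them were among the 278. With normexp background correction and the same percentile scaling, 92 lower and 6 higher genes passed, a split of 93.9% lower against 80.9%. Without Tet2KD replicate 2, the count of higher genes was 82 in place of 53.

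**Figure D1:**
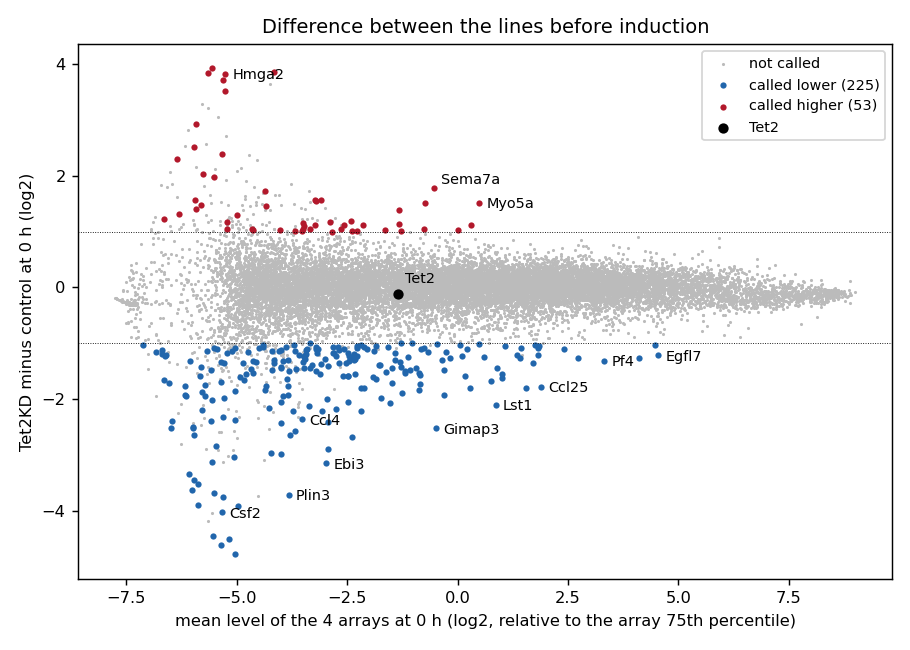
Difference between the lines at 0 h (Tet2KD minus control, log2) against the mean level of the 4 arrays, with 1 point per gene and dotted lines at 2-fold. The 225 genes called lower outnumber the 53 called higher, Tet2 lies near 0, and the most extreme values at the left belong to genes with 1 dim group, whose fitted values are not measured folds.

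Among secreted signals, the largest difference of a gene measured on all 4 arrays was that of Ebi3, which encodes the beta chain shared by interleukins 27 and 35. Ebi3 read -1.38 and -1.42 on the control arrays and -4.65 and -4.46 on the Tet2KD arrays. It was 8.89-fold lower (-3.15 ± 0.08, adjusted p = 0.00017). Il6, an inflammatory cytokine gene, read -3.12 and -2.96 in control and -4.67 and -4.67 in Tet2KD cells, a 3.10-fold difference (-1.63 ± 0.07, adjusted p = 0.00099). Csf2, the gene of the growth factor GM-CSF, read -3.25 and -3.41 in control cells and was not well above background on either Tet2KD array. In the levels used here it was at least 4.55-fold lower (limma adjusted p = 0.0011). Every such bound in this report holds for these levels and for the mean of the measured group. In the alternative settings the fitted differences were as small as -1.875 for Ebi3, -0.79 for Il6 and -1.21 for Csf2. The call of Il6 was lost in 3 of them, among them the authors' deposited value table. Ebi3, Il6 and Csf2 were the 3 members called among 25 tested cytokine and growth factor genes, all lower, and the median difference of the list was -0.38. Under the other scalings and the fit with the slide as a block, 2 or 3 of them passed.

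Chemokines, the chemoattractants that guide leukocytes, held several lower members. Of 13 tested genes, 7 were lower and none was higher, with a median difference of -1.09 (-0.83 if dim genes are set to their bounds), and 5 to 7 passed under the other scalings and the block. The log2 summed level of the 13 genes overlapped between the lines, at 7.80 and 7.66 in control against 7.87 and 7.57 in Tet2KD cells. The total signal of the list therefore did not follow its lower members. Another 23 listed chemokine genes were too dim to test. Ccl3, which encodes a chemoattractant of monocytes and T cells, read 0.63 and 0.68 in control and -1.31 and -1.23 in Tet2KD cells (-1.93 ± 0.09, adjusted p = 0.00099). Ccl4, its close relative, read -2.14 and -2.54 against -5.02 and -4.37 (-2.36 ± 0.24, adjusted p = 0.0051). Ccl25, whose product attracts thymic and gut lymphocytes, read 2.83 and 2.74 against 1.04 and 0.98, a 3.42-fold difference (adjusted p = 0.00050). In each of these genes both Tet2KD arrays were below both control arrays by more than the duplicates differed. Ccl9 (-1.09), Ccl5 (-1.95, above background on 1 of 2 Tet2KD arrays) and the monocyte attractant gene Ccl2 (at least 1.72-fold) were also lower. Pf4, the platelet factor 4 gene, was among the brightest members at 4.07 and 3.88 in control and 2.66 and 2.65 in Tet2KD cells (-1.32 ± 0.08, adjusted p = 0.0017). Pf4 also stands in the erythroid and megakaryocyte list, of which 7 genes of 19 were tested and 1 was lower. The log2 summed level of that list was 4.75 and 4.66 in control against 4.06 and 4.17 in Tet2KD cells, and its part in the chemokine result was not tested.

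Receptors for such signals included lower genes as well. Of 31 chemokine and chemoattractant receptor genes, 4 were lower and none was higher, with a median of -0.42, and 2 to 4 passed under the other scalings and the block. P2ry6, a receptor for extracellular UDP, read -2.61 and -2.64 in control and -4.87 and -4.82 in Tet2KD cells (-2.22 ± 0.05, adjusted p = 0.00017). Ptger2, a prostaglandin E2 receptor, differed by -1.51 ± 0.06 (adjusted p = 0.00081). Gpr132 was at least 1.08-fold lower, and its call was lost in 16 of the alternative settings. In the list of cytokine receptors and JAK-STAT signalling, 2 of 41 genes were lower, where 1.39% of all genes were, and the median was -0.24. No list was tested against that share. Il10ra, the ligand-binding chain of the interleukin 10 receptor, read 2.11 and 2.00 against 0.82 and 0.75 (-1.27 ± 0.06, adjusted p = 0.0011), and Cish, a feedback inhibitor of STAT signalling, was at least 1.18-fold lower. Among 24 TNF ligand and receptor genes, 3 were lower and none was higher (median -0.20), and 1 to 3 passed under the other scalings and the block. They were the lymphotoxin genes Ltb (-1.45 ± 0.12) and Lta (-1.35 ± 0.09) and the receptor gene Tnfrsf18 (-1.23 ± 0.11), with adjusted p of at most 0.0044. None of 35 genes for NF-kappaB factors and their feedback inhibitors was called, where 1.72% of all genes were, and their median was -0.09.

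**Figure D2:**
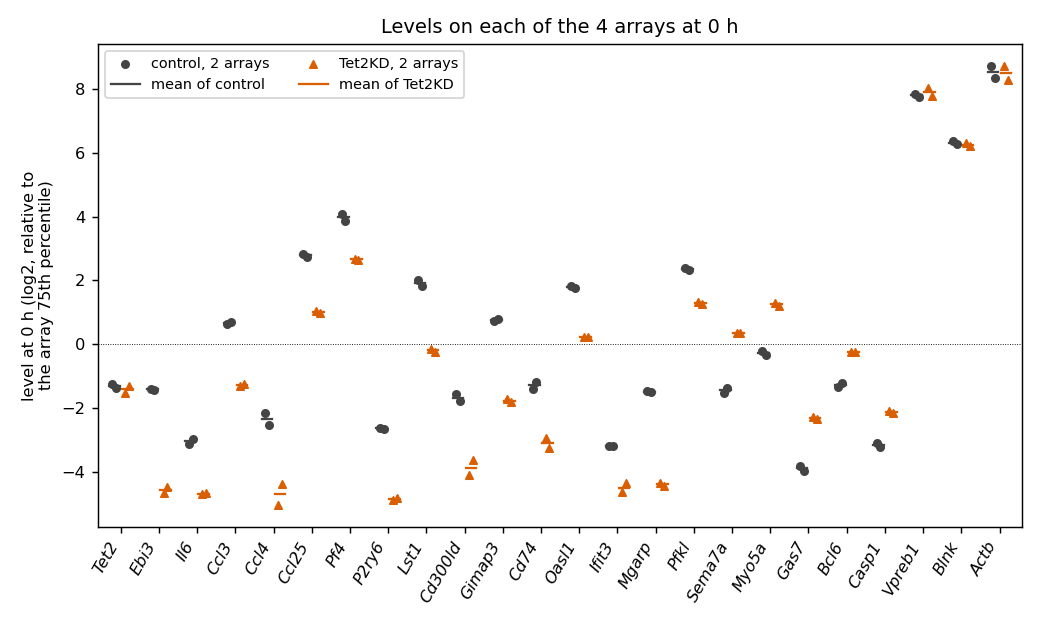
Level of 24 genes on each uninduced array (log2 relative to the array's 75th percentile), with circles for the 2 control arrays, triangles for the 2 Tet2KD arrays and a bar at each mean. The duplicates lie close together, and the lines separate for the called genes but overlap for Tet2, Vpreb1, Blnk and Actb.

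Interferon response genes held 6 lower members and no higher one among 66 tested, with a median of -0.15. Between 2 and 6 passed under the other scalings and the block. Oasl1, an oligoadenylate synthetase-like gene, read 1.82 and 1.76 in control and 0.24 and 0.22 in Tet2KD cells (-1.56 ± 0.06, adjusted p = 0.00055). Ifit3, one of the antiviral tetratricopeptide repeat genes, read -3.19 and -3.18 against -4.63 and -4.33 (-1.30 ± 0.14, adjusted p = 0.0056). Ifit1, its neighbour, read -2.77 and -2.80 in control and -5.04 and -5.37 in Tet2KD cells, and was above background on only 1 of the 2 Tet2KD arrays (-2.42 ± 0.12, adjusted p = 0.0010). Slfn2 was at least 2.42-fold lower and the antiviral GTPase gene Mx2 at least 1.33-fold. The sixth call, Ifitm6, was not well above background on any uninduced array and gets no fold. No MHC class I presentation gene was called among 25 tested.

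Promoters of genes that differed were searched for 5 motifs on both strands. RefSeq promoters, from 250 bases before to 50 bases after the start in build GRCm38.p6, were matched for 161 of the 225 lower genes, 28 of the 53 higher genes and 9741 of all genes tested. The 10-base NF-kappaB consensus site was found in 31 lower genes (19.3%), in 3 higher genes (10.7%) and in 12.2% of all genes tested. The interferon response element core GAAANNGAA was present in 9.32% of lower genes, 7.14% of higher genes and 8.73% of all. For the AP-1 site TGACTCA the shares were 4.35%, 17.9% (5 genes) and 4.53%. The C/EBP form TTGCNNAA was in 13%, 17.9% and 10.3%, and TTGCNNCAA in 0.621%, 3.57% and 1.83%. The shares above count a gene once, for a match in any of its promoters. Counted promoter by promoter, a different unit, the shares over all 32851 promoters of the table were 8.46% for the NF-kappaB site, 8.56% for the interferon element core, 5.20% for AP-1, and 10.8% and 2.08% for the C/EBP forms. These are counts of letters, not of bound sites, base composition was not matched, and no test was made.

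Promoters of 3 lower genes are shown with the matches in capitals. Ebi3 and Mgarp lead the lower genes measured on all arrays and hold NF-kappaB site matches. Ifit1 was added after its values were seen, as the interferon gene with the largest difference. Ebi3 (chr17:55952373-55952672, plus strand) has matches that begin 44 bases before and 14 bases after the start. Mgarp (chr3:51396498-51396797, minus strand) has 1 match that begins 32 bases before it, and Ifit1 (chr19:34640639-34640938, plus strand) has 3 matches of the interferon element core that begin 109, 103 and 84 bases before it, of which the first and second overlap.
Ebi3: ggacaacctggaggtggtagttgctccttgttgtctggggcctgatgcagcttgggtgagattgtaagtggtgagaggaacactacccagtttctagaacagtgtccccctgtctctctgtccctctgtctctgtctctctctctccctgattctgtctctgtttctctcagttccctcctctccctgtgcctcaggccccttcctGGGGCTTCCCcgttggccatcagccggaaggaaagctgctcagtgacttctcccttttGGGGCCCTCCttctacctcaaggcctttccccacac
Mgarp: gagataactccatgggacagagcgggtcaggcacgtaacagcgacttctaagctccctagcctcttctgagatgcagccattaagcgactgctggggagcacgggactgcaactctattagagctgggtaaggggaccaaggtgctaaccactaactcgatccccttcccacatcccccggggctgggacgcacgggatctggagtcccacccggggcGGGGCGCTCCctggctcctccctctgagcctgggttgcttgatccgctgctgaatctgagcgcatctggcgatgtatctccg
Ifit1: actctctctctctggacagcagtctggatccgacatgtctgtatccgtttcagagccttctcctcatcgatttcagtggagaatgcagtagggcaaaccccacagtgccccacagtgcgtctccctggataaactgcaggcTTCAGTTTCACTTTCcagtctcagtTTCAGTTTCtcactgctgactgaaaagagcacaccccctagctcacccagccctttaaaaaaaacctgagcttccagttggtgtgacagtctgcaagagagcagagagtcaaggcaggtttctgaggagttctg

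Lower genes with all 4 arrays above background included Gimap3, Lst1, Cd300ld and Sparc. Gimap3, a GTPase gene of lymphocyte survival, read 0.74 and 0.79 in control and -1.71 and -1.81 in Tet2KD cells (-2.53 ± 0.06, adjusted p = 0.00017). Lst1, a leukocyte adaptor gene in the MHC region, read 2.01 and 1.82 against -0.14 and -0.23 (-2.10 ± 0.09, adjusted p = 0.00084). Cd300ld, an activating myeloid receptor gene, read -1.56 and -1.78 against -4.10 and -3.61 (-2.19 ± 0.18, adjusted p = 0.0034). Sparc, a matrix glycoprotein gene, was lower (-1.97 ± 0.14, adjusted p = 0.0021) in the list of 33 integrin and adhesion genes, of which 2 were lower and whose median was -0.26. In the pre-B receptor and B cell signalling list, Bst1, the ectoenzyme CD157 of bone marrow pre-B cells, read -0.61 and -0.68 against -2.26 and -2.44 (-1.71 ± 0.08, adjusted p = 0.0010), and Cd2 differed by -1.11 ± 0.09 (adjusted p = 0.0036). The other 33 of the 35 tested members were not called. For this list and the adhesion list, the share of lower genes over all genes was 1.39%.

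Antigen presentation by MHC class II was lower for 2 of 13 tested genes, and 12 of the 13 differences were below 0 (median -0.30). Cd74, the invariant chain that escorts class II molecules, read -1.41 and -1.17 in control and -2.95 and -3.23 in Tet2KD cells (-1.80 ± 0.17, adjusted p = 0.0046), and H2-Oa, a chain of the peptide-loading modulator, differed by -1.08 ± 0.12 (adjusted p = 0.0061). Under the other scalings and the block 1 or 2 of them passed. Among 39 myeloid surface receptor genes, 2 were lower and 1 was higher, where 1.39% of all genes were lower and 0.328% higher. Tyrobp, a signalling adaptor of myeloid receptors, differed by -1.02 ± 0.10 (adjusted p = 0.0050) and Fcgr4 was at least 1.45-fold lower, while the scavenger receptor gene Cd36 was higher (1.03 ± 0.18, adjusted p = 0.023). The calls of Tyrobp, Fcgr4 and Cd36 were lost in 7, 3 and 11 alternative settings, and between 0 and 2 lower members passed under the other scalings and the block. In the granule protein list only the serine protease gene Prtn3 was called of 16 tested (-1.14 ± 0.13, adjusted p = 0.0082), and in the S100 and annexin list only S100a4 (-1.16 ± 0.06, adjusted p = 0.0011). The call of Prtn3 was lost in 6 alternative settings.

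Energy metabolism held further lower genes. Of 41 genes of glycolysis, hypoxia and lactate export, 4 were lower and none higher, with a median of -0.27, and 32 of the 41 differences were below 0. Pfkl, which encodes a subunit of the glycolytic enzyme phosphofructokinase, read 2.39 and 2.33 in control and 1.34 and 1.27 in Tet2KD cells (-1.06 ± 0.07, adjusted p = 0.0023). Slc16a3, the lactate exporter MCT4, read -2.36 and -2.44 against -5.17 and -4.80 (-2.58 ± 0.14, adjusted p = 0.0014), with 1 of 2 Tet2KD arrays above background. Ak4, a mitochondrial adenylate kinase gene that responds to hypoxia, read -2.50 and -2.50 against -5.64 and -5.33 (-2.99 ± 0.11, adjusted p = 0.00055), again with 1 Tet2KD array above background. The enolase gene Eno2 was at least 3.93-fold lower. Mgarp, which encodes a mitochondrial protein and belongs to none of the lists, read -1.47 and -1.49 against -4.35 and -4.42, a 7.47-fold difference (-2.90 ± 0.07, adjusted p = 0.00017). Plin3, a coat protein of lipid droplets, read -1.82 and -2.12 in control cells and was not above background in Tet2KD cells, at least 11.7-fold lower (adjusted p = 0.0017). That was the largest bound of the comparison, and in the alternative settings the fitted difference of Plin3 was as small as -1.78. Plin3 and the phospholipid transfer protein gene Pltp (at least 1.87-fold) were the lower members of 58 lipid genes, Cd36 was the higher one, and the list's median was 0.17. Over all genes 1.39% were lower and 0.328% higher.

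The remaining lower genes picked by size covered diverse functions. Vwa5b1 (-2.68 ± 0.14), the histone H3 gene H3c15 (-2.64 ± 0.12), the RIKEN transcript ENSMUST00000098571 (-2.40 ± 0.24), the recycling endosome gene Rab11fip5 (-2.22 ± 0.10), Zfr2 (-2.21 ± 0.07), the transporter gene Slc22a18 (-2.13 ± 0.47) and the zinc finger gene Zfp467 (-2.06 ± 0.07) had all 4 arrays above background. Slc22a18 had duplicates far apart in control cells, at -3.07 and -1.54, and its call was lost in 11 alternative settings. With both Tet2KD arrays dim, bounds by the control mean were at least 7.29-fold lower for ENSMUST00000145453 and 6.05-fold for the ephrin receptor gene Epha7. They were 5.67-fold for 1600014C23Rik, 5.56-fold for probe A_55_P2299976 and 4.62-fold for the non-coding transcript Sox1ot. Except for 1600014C23Rik, these passed the filter only through the control arrays at 0 h, so the filter favoured a lower call. ENSMUST00000145453 read -3.97 and -1.33 in control cells. In the alternative settings its fitted difference was as small as -1.88, that of Epha7 -1.49 and that of 1600014C23Rik -1.45. ENSMUST00000145453, Epha7 and Sox1ot lost their call in 10, 8 and 11 settings. In the semaphorin, plexin and ephrin list, Plxnb3 (-1.41 ± 0.12, adjusted p = 0.0036) and Efna1 (-1.17 ± 0.10, adjusted p = 0.0040) were lower beside Epha7, 3 of 30 tested, and 0 to 3 passed under the other scalings and the block. Bmf, a BH3-only activator of cell death, read -0.44 and -0.43 against -2.06 and -1.87 (-1.53 ± 0.10, adjusted p = 0.0017), and Notch1 differed by -1.03 ± 0.18 (adjusted p = 0.022), a call lost in 10 settings.

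**Figure D3:**
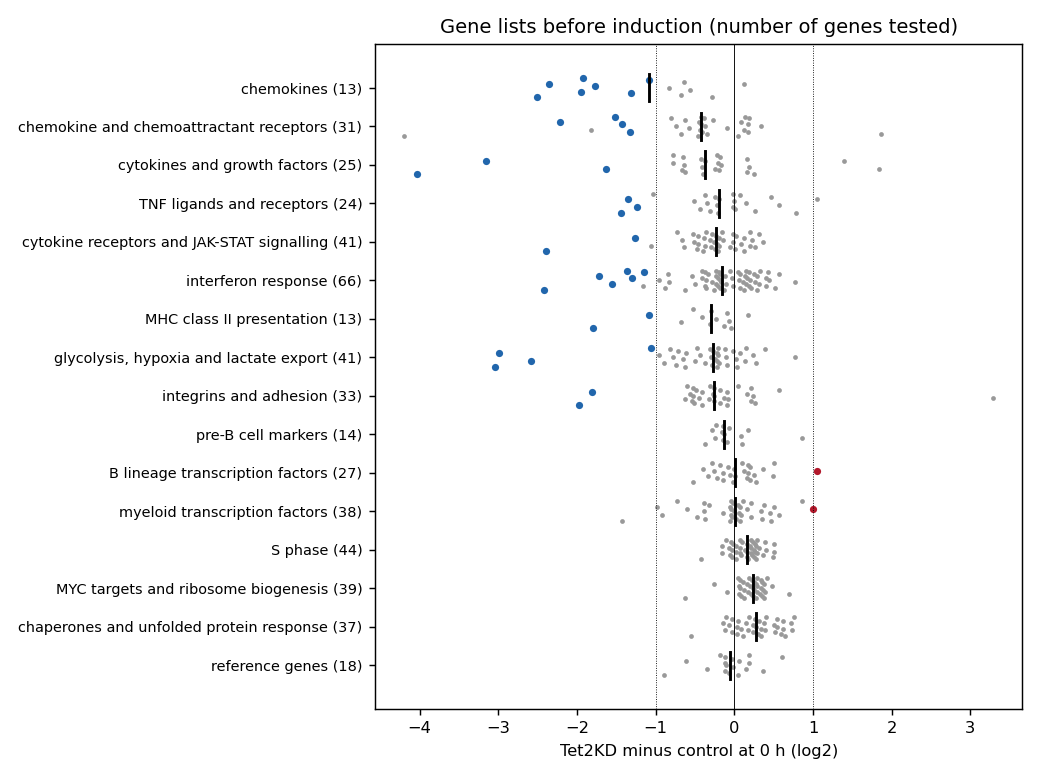
Difference between the lines at 0 h (Tet2KD minus control, log2) for each tested member of 16 gene lists, with blue and red points for genes called lower and higher, a black bar at the list's median and dotted lines at 2-fold. Chemokines hold 7 blue points of 13 and a median of -1.09, while pre-B cell, S phase and reference lists hold no called gene.

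Higher genes were fewer and differed by less. Sema7a, a membrane-anchored semaphorin of immune cells, read -1.51 and -1.36 in control and 0.35 and 0.36 in Tet2KD cells, 3.46-fold higher (1.79 ± 0.09, adjusted p = 0.0010). Myo5a, an unconventional myosin that carries vesicles along actin, read -0.20 and -0.33 against 1.29 and 1.21 (1.51 ± 0.07, adjusted p = 0.00099). Gas7, a regulator of actin assembly, read -3.80 and -3.96 against -2.27 and -2.35 (1.57 ± 0.08, adjusted p = 0.0011). Of 60 actin, myosin and motility genes these were the 2 higher members, and the class I myosin gene Myo1d was lower (-1.49 ± 0.10, adjusted p = 0.0017). Over all genes 0.328% were higher and 1.39% lower. The gap junction gene Gja1 (1.16 ± 0.11, adjusted p = 0.0046) and the myosin light chain gene Myl4 (1.16 ± 0.08, adjusted p = 0.0022) were also among the 10 with the largest increases measured on all arrays. The calls of Gas7, Gja1 and Myl4 were lost in 4, 3 and 3 alternative settings, among them the authors' deposited value table.

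Regulators and stress genes gave single calls. Bcl6, the germinal centre repressor, read -1.35 and -1.22 in control and -0.23 and -0.23 in Tet2KD cells (1.05 ± 0.07, adjusted p = 0.0018) and was the only call among 27 B lineage transcription factors. Bhlhe40, a repressor that the myeloid factor list holds, was 2.00-fold higher (adjusted p = 0.0021) and the only call among 38. Casp1, the inflammasome protease, read -3.10 and -3.22 against -2.08 and -2.13 (1.05 ± 0.06, adjusted p = 0.0017). The calls of Bcl6, Bhlhe40 and Casp1 were lost in 4, 5 and 4 alternative settings, among them the authors' deposited value table. In the list of NRF2 targets and glutathione genes, which answer oxidative stress, 2 of 39 were higher and none was lower. Srxn1, the sulfiredoxin gene, had 1 control array above background (1.73 ± 0.17, adjusted p = 0.0050), a call lost in 4 settings. The cystine transporter gene Slc7a11 was at least 1.96-fold higher, a call lost in 12 settings. Between 0 and 3 members of the list passed as higher under the other scalings and the block. The largest bounds of higher genes were those of the chromatin protein gene Hmga2 (at least 3.93-fold), probe A_55_P2426941 (at least 3.66-fold), Pcdh15 (at least 3.54-fold) and ENSMUST00000150060 (at least 3.31-fold). Their Tet2KD duplicates were far apart in Hmga2, at -2.60 and -4.10, and in Pcdh15, at -4.36 and -2.64, and these calls were lost in 12 and 10 settings.

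Immunoglobulin probes made up several of the largest increases, a group chosen after the values were seen. The files annotate 22 kept probes as immunoglobulin heavy or light chain, of which 4 were higher and none was lower, and 11 of the 22 differences were above 0. Over probes, 64 of 20304 were called higher. A heavy chain probe annotated as IgG2a (BC019489, chr12:114525496-114525555 in mm9) read -1.46 and -1.52 in control and 0.03 and 0.03 in Tet2KD cells (1.52 ± 0.18, adjusted p = 0.0075). An IgG2b heavy chain probe (ENSMUST00000103418) read -2.02 and -2.01 against -0.54 and -0.71 (1.39 ± 0.12, adjusted p = 0.0039). Probes annotated as IgG2c and as gamma 1 differed by 1.41 ± 0.37 and 1.24 ± 0.40 without passing (adjusted p over probes = 0.064 and 0.11). Light chain probes on chromosome 6 included higher ones too. ENSMUST00000103396, a variable region, read -3.95 and -4.07 against -2.41 and -2.49 (1.56 ± 0.17, adjusted p = 0.0061), and ENSMUST00000103399, annotated as kappa V21-7, differed by 1.20 ± 0.15 (adjusted p = 0.0098). The remaining light chain probe there, ENSMUST00000103324, differed by 0.65 ± 0.08 with 1 of the 4 arrays above background, under 2-fold. The unannotated probe A_55_P2183369 (chr6:70622312-70622371) differed by 1.56 ± 0.15 (adjusted p = 0.0049). The bright heavy chain variable probes did not follow. The brightest, LOC677484, read 5.56 and 5.42 in control and 5.32 and 5.19 in Tet2KD cells (-0.24 ± 0.12), and the next, ENSMUST00000103537, differed by -0.29 ± 0.08, with neither called. Immunoglobulin segments have near-identical copies, so which segment a probe reads is uncertain, and 2 to 6 of the probes passed as higher under the other scalings and the block.

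**Figure D4:**
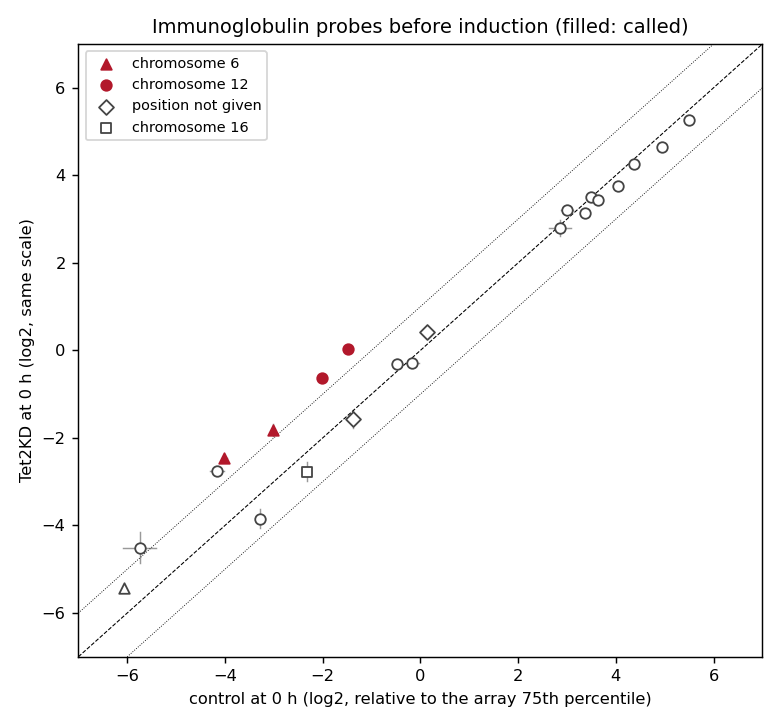
Mean level at 0 h in Tet2KD against control cells for 22 probes annotated as immunoglobulin (log2 relative to the array's 75th percentile), with filled symbols for called probes, grey lines spanning the 2 duplicates, a dashed line of equality and dotted lines at 2-fold. The 4 called probes lie above the upper 2-fold line at low to middle levels, while the brightest chromosome 12 probes lie near equality.

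Several lists moved by little or held no call. Of 44 S phase genes and 40 genes of the G2 and M phases, none was called, with medians of 0.17 and 0.11. Small differences of 1 sign were frequent in growth genes. In the list of MYC targets and ribosome biogenesis, 36 of 39 differences were above 0 with a median of 0.23, and in chaperones and the unfolded protein response 30 of 37 were above 0 with a median of 0.28, and no member of either reached 2-fold. Both medians stayed above 0 under every scaling tried. None of 33 lysosome genes was called, with 26 differences below 0 and a median of -0.17. None of 14 V(D)J recombination genes, 9 NADPH oxidase genes, 53 Polycomb and trithorax genes or 18 AP-1 and immediate early genes was called. Over all genes only 1.72% were called, so the lack of a call in lists of this size says little. Of 7 tested C/EBP family genes none was called, and Cebpb differed by -0.51 ± 0.06 (adjusted p = 0.0082), below 2-fold. Among 18 reference genes none was called, and Actb differed by -0.03 ± 0.23 and Gapdh by -0.12 ± 0.15.

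The difference between the lines was compared before and after induction. At 24 h, on separate arrays, 329 genes were called between the lines (2.04%), 168 higher (1.04%) and 161 lower (0.997%). Of the 225 genes lower at 0 h, 20 were also lower at 24 h, which is 8.89% of the 0 h list and 12.4% of the 24 h list. Of the 53 higher genes, 14 were higher at both times, which is 26.4% of the 0 h list and 8.33% of the 24 h list. The change of the difference between the times was itself tested as an interaction, and 153 of the 278 passed, against 3.82% of all genes. The interaction reuses the 0 h arrays on which the 278 were chosen. That choice by itself favours a pass, and the excess over all genes was not tested apart from it. In 128 genes lower at 0 h the difference moved up (2.36% of all genes did) and in none of them down, while in 24 genes higher at 0 h it moved down (1.46% of all genes) and in 1 up, a direction that choosing genes by their 0 h difference favours. The median 24 h difference was -0.23 for the genes lower at 0 h and 0.39 for the genes higher at 0 h, against 0.04 for all genes. At 24 h the difference was still below 0 in 149 of the 225 and above 0 in 32 of the 53. The interaction count depended on the processing: it was 43 of 96 called genes with the authors' deposited table, 68 of 223 with median scaling and 43 of 198 with no filter on dim probes. Without control 24 h replicate 2, 98 of 254 called genes passed it.

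Genes that stayed apart and genes that came together can be told by their levels. Gimap3 read -0.05 and -0.04 in control and -1.75 and -1.83 in Tet2KD cells at 24 h, lower at both times. Ebi3 read 1.96 and 1.92 against 0.62 and 0.68, still lower by 1.29 (adjusted p = 0.0015) but by less than before (interaction 1.87, adjusted p = 0.0023). Csf2 and Plin3 were lower at 24 h by 2.14 and 2.79, and Sema7a was higher by 1.08. Casp1 and Myl4 differed at 24 h by 1.03 and 1.14, close to their 0 h values. By contrast, Lst1 read 6.20 and 6.12 against 5.88 and 5.83 (-0.30, adjusted p = 0.073). Its interaction was called, at 1.79 (adjusted p = 0.0027).

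Direction turned in 11 genes that were called at both times. Lower before and higher after induction were Ifit1 (-2.42, then 3.05), Ifit3 (-1.30, then 3.76), Ifit3b (at least 1.87-fold lower, then 4.08), Mx2 (at least 1.33-fold lower, then 2.79), the serum amyloid gene Saa2 (-2.06, then 1.14) and Hmces (-1.30, then 1.10). Higher before and lower after were Bhlhe40 (1.00, then -1.49), Rgcc (then -1.44), Slc7a11 (then -1.17) and the probes ENSMUST00000056900 and A_55_P2211164. Saa2, Hmces, Rgcc and these probes are named after their values were seen. In the interferon list 34 of 66 genes were higher and 1 was lower at 24 h, with a median of 1.04.

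**Figure D5:**
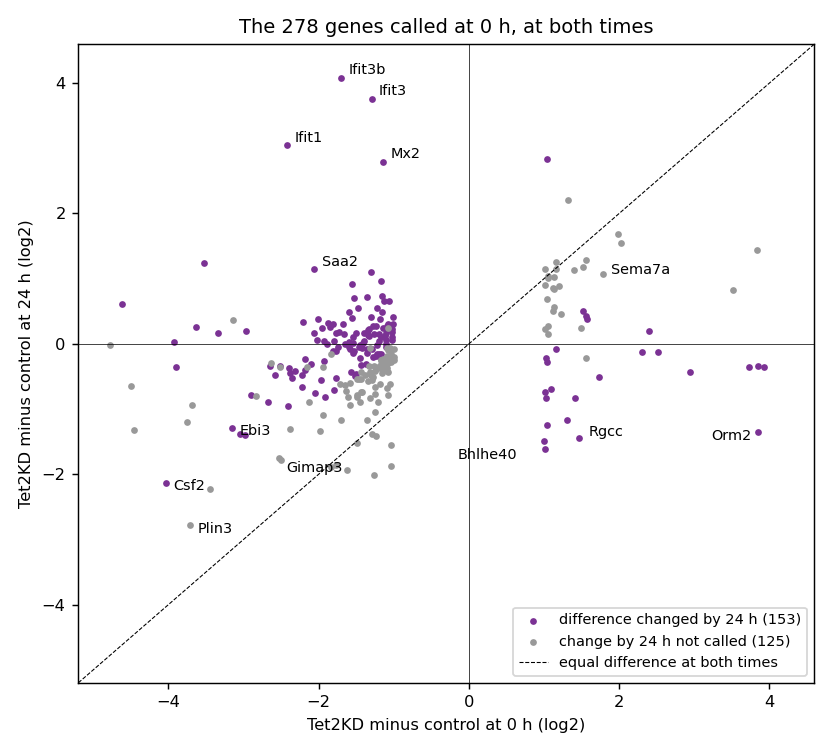
Difference between the lines at 24 h against that at 0 h (log2, Tet2KD minus control) for the 278 genes called at 0 h, with purple points for the 153 genes whose difference changed by the interaction test and a dashed line of equal difference. Ifit1, Ifit3, Ifit3b and Mx2 stand at the upper left, while Gimap3, Plin3 and Sema7a lie on the same side of 0 at both times.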

How the data were processed

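RNA of each sample (500 ng) was labelled with Cy3 and read on 1-colour Agilent mouse arrays of design 026655, per the labels' protocols and the file headers. The deposited scanner files, extracted under protocol GE1_107_Sep09 by Feature Extraction, version 10.7.3.1, and annotated on mm9 per the file headers, hold intensity values per spot, background-subtracted and not scaled between arrays. The deposited value table holds log2 values of the same arrays. The submitters' processing notes name limma without a version, and the background correction and normalization are not given in the sources used here; a recomputation with normexp (offset 50) and quantile normalization matched it with a correlation across spots that rounds to 1. Its median over non-control spots was about 6.89 on each array, and its direction follows the scanner values.

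The 75th percentile of the array's non-control spots was subtracted on the log2 scale. Spots marked as outliers were left out and replicate spots were averaged per probe. Probes passed if any of the 4 groups had both arrays well above background, and a gene was represented by its brightest passing probe, which left 20304 probes and 16151 genes. Names came from the RefSeq table (GRCm38.p6) for 11618 genes through an accession, 580 through a symbol and 89 through a synonym, while 3864 kept the file's name. Each array had 43020 probe spots and no saturated spot. The number of arrays limits the precision, and the median standard error was 0.10.

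Group means of all 8 arrays were fitted with limma (version 3.58.1) under R 4.3.3, tables being read with the data.table package, version 1.17.8, with 4 residual and 1.51 prior degrees of freedom. Adjusted p-values are Benjamini-Hochberg values over all genes, and tests are 2-sided. Where no array of a group was above background, a bound compares the mean of the measured group with the dim group raised, array by array, to the lowest value well above background. It holds for the levels used here, and fitted differences could be smaller than the bound in the alternative settings. On simulated data with 100 genes changed by 1.5 and 100 by 3 on the log2 scale, the fit called 82 and 94 of them, and 7 of the unchanged genes. The simulated errors were independent and normal, with no slide effect and no background floor, so these rates need not hold for the real arrays.

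Replicate numbers mark the slide, per the file headers: the differences between replicate 2 and replicate 1 correlated between groups with r from 0.298 to 0.412. The numbers therefore pair the arrays, and the fit with the replicate as a block is given as an alternative. Named genes are the Tet genes and Cebpa, the 14 lowest and 10 highest called genes measured on all 4 arrays, the called genes with the largest bounds (6 lower, 4 higher), up to 5 called members of each list, up to 4 of the brightest members of lists on lineage, methylation and reference genes, and the 6 called genes with the largest interaction. The comparison, the members of the 47 lists (1225 of 1543 listed genes tested, 309 too dim, 9 not matched) and this rule were chosen with earlier results of these data known. Alternatives covered background correction, scaling, the deposited table, the probe filter, the probe summary, the arrays fitted, the fold limit, the block and leaving out each array. Figures were drawn with matplotlib 3.10.9 in Python 3.11.15. Values of some list members are not reported here.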

Additional observations from a re-analysis of the deposited data

Results flagged for a closer look

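Genes called at 0 h were chosen on arrays that also enter the test of the change, which favours a pass. By that test, the difference between the lines changed from 0 h to 24 h in 153 of the 278. The largest changes among them, as the 24 h difference minus the 0 h difference on the log2 scale, were in the interferon-induced genes Ifit3b (5.78, limma adjusted p = 0.0051), Ifit1 (5.47, adjusted p = 0.00076) and Ifit3 (5.05, adjusted p = 0.0013). Probes A_55_P2299976 (5.23, adjusted p = 0.0088) and A_51_P158044 (4.77, adjusted p = 0.0081) had fitted changes in the same direction. Both were well above background only on the control arrays at 0 h and were dim in both lines at 24 h. A difference at 24 h was therefore not measured for these probes. Orm2, which encodes an acute phase glycoprotein, changed the opposite way (-5.21, adjusted p = 0.044). It read -4.96 and -7.19 on the control arrays and -1.32 and -3.12 on the Tet2KD arrays at 0 h, against 0.75 and 0.68 and -0.63 and -0.66 at 24 h, so the duplicates were far apart before induction. Its 0 h call was lost in 10 alternative settings, and that of Ifit3b in 11.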

How the results depend on the processing

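The 278 called genes became 96 with normexp and quantile normalization (11 higher, 85 lower) and also with the deposited value table, 98 with normexp and percentile scaling (6 and 92), 166 from the 4 uninduced arrays alone (37 and 129, 154 of them among the 278), 823 at 1.5-fold (237 and 586) and 2176 with no fold limit (955 and 1221). Quantile normalization of the processed signal, median scaling, no filter, a filter at 0 h only, the mean of a gene's probes and a trended prior gave 198 to 274. Leaving out 1 array at a time gave 241 to 301 called genes, 38 to 82 higher and 201 to 219 lower, and 166 of the 278 passed without each uninduced array in turn. With the replicate block 289 genes were called, 276 of them shared, and Tet2 remained uncalled at -0.11. The interaction count of 153 became 43 with normexp and quantile normalization, with the deposited table and with no filter, 49 with normexp and percentile scaling, 68 with median scaling, 510 at 1.5-fold, 1236 with no fold limit, and 98 to 199 with 1 array left out. Genes called in the same direction at both times, 34, became 10 with normexp and quantile normalization and with the table, 12 with normexp and percentile scaling, 22 with median scaling, 21 with no filter, 107 at 1.5-fold, 370 with no fold limit and 25 to 35 with 1 array left out. The cause of these shifts was not tested. Tet2 ranged from -0.22 to -0.00053 with 1 array left out and was never called. Of 86 named called genes none changed sign, 33 kept the call in every setting, and 45 kept it with the deposited table; of 27 named genes not called, 14 changed sign in 1 setting or more. A fit that leaves 1 array in a group assumes that it varies like the other groups. Signal over background limits the 67 called genes with 1 dim group, of which 32 have a bound of at least 2-fold.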

Other observations

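Gene families outside the lists, chosen after the values were seen, held further calls. Of 43 histone genes tested, 5 were lower in Tet2KD cells, none was higher and 3 of the 43 differences were above 0 (median -0.24), and 3 to 5 were lower under the other scalings and the block. Besides H3c15, the lower ones were the H2A genes H2aw (-1.48, limma adjusted p = 0.020) and H2ac18 (-1.39, adjusted p = 0.0069), the linker histone gene H1f2 (-1.28, adjusted p = 0.00099) and H2bc8 (at least 1.58-fold). H2aw read 0.40 and 0.48 in control and -0.64 and -1.45 in Tet2KD cells. At 24 h no histone gene was called.

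The Gimap and serum amyloid A families held 2 calls each. Of 7 Gimap genes, 2 were lower and 2 differences were above 0, with Gimap4 at 3.38 and 3.31 in control against 2.09 and 2.08 in Tet2KD cells (-1.26 ± 0.06, adjusted p = 0.0010) beside Gimap3. Of 3 serum amyloid A genes, which encode acute phase proteins, 2 were lower and 1 difference was above 0. Saa2 read -3.02 and -2.91 against -4.93 and -5.12 (-2.06 ± 0.10, adjusted p = 0.0010), and Saa1 differed by -1.18 ± 0.12 (adjusted p = 0.0057). Il12rb1, a receptor chain for interleukins 12 and 23, was lower by 1.59 (adjusted p = 0.0014). Aim2, a cytosolic DNA sensor, was higher by 1.05 at 0 h (adjusted p = 0.037) and by 1.01 at 24 h (adjusted p = 0.040).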
